A study of Mus musculus with 22 samples.

Results

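The comparison described here sets 10 spinal cord RNA libraries of mice homozygous for the E196K change in Yars (genotype E196K/E196K, called HOM) against 6 libraries of wild type mice (WT). These 16 libraries, of 22 in the series, were taken by the genotype in the labels. The other 6 are heterozygous (E196K/+, HET); they share the estimate of the spread in the fit, and their values are shown beside the HOM values where useful. All mice were 7 months old, on a mixed B6N;B6J strain background, and the labels give no sex. RNA came from whole spinal cord and was sequenced after polyA selection. The labels do not state that each library came from a separate mouse, so every p-value below measures the spread between these libraries, which may be technical.

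Yars encodes the cytosolic tyrosyl-tRNA synthetase, the enzyme that joins tyrosine to its tRNA, and E196K is among the changes in the human protein known to cause a dominant form of Charcot-Marie-Tooth peripheral neuropathy. The integrated stress response is the pathway in which kinases such as Gcn2 phosphorylate the initiation factor eIF2, which lowers protein synthesis in general and raises translation of the transcription factor ATF4. ATF4 and its partners then raise genes for amino acid import and synthesis, for tRNA synthetases and for secreted stress hormones.

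The tissue label was checked against marker genes. Neuronal Rbfox3 ran from 143 to 156 CPM in WT (CPM, counts relative to the scaled library total) and from 137 to 156 CPM in HOM. Myelin transcript Mbp ran from 10670 to 12350 CPM in WT and from 8682 to 11710 CPM in HOM. The astrocyte water channel Aqp4 ran from 547 to 736 CPM in WT and from 427 to 624 CPM in HOM. Markers of neurons, oligodendrocytes and astrocytes were thus present in every library. Total counts ran from 29.22 M to 42.81 M in WT and from 26.43 M to 38.34 M in HOM. Xist was above 10 CPM in 5 of 6 WT and 6 of 10 HOM libraries. Sample titles start with a number of unstated meaning: 39992 stands on 5 HOM and 1 WT titles, 40411 on 3 and 2, and 40412 on 2 and 3.

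The homozygous library numbered 3 in deposition order (HOM 3) stood apart from the other 9. It had 440 genes more than 2-fold above every other HOM library, where each of the other HOM libraries had between 0 and 6 such genes. Its median correlation with the other HOM libraries was 0.9782, and that of HOM 1 was 0.9948. Prx encodes a protein of myelinating Schwann cells: HOM 3 had 500 CPM and no other HOM library more than 1.07 CPM. Counts of genes, list medians and most gene values are therefore given with and without HOM 3. Because these are bulk samples, fewer cells of a type and less RNA per cell cannot be told apart.

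Yars itself, which carries the changed codon, had 109, 114 and 118 CPM as lowest, median and highest values in WT, and 109, 122 and 129 CPM in HOM. The HOM and WT libraries overlapped, and the lowest HOM value was that of HOM 3. The log2 fold change was 0.10 (SE 0.0332, edgeR adjusted p = 0.643), and 0.12 without HOM 3 (SE 0.029, adjusted p = 0.218). A change of 1 codon need not alter the transcript level, so these values do not check the genotype labels.

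Of 16974 genes tested, 16 passed an adjusted p of 0.05 in HOM against WT, which is 0.0943% of them: 15 were higher (0.0884%) and 1 was lower (0.00589%). Without HOM 3 the count was again 16 of 16951 genes (0.0944%), with 15 higher (0.0885%) and 1 lower (0.0059%), and 15 genes were called in both fits. Adm2 was not tested without HOM 3 because it fell under the filter on low counts, and Aars was called only without HOM 3. At an unadjusted p below 0.05 there were 1004 genes (5.91%), of which 614 were higher (3.62%) and 390 lower (2.3%). Without HOM 3 the 1098 genes at that level (6.48%) were 675 higher (3.98%) and 423 lower (2.5%).

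The bulk of the transcriptome lay close to no difference. The median log2 fold change over all genes tested was 0.01 with all libraries, and 53.7% of genes were higher by any amount and 46.3% lower. Without HOM 3 these shares were 51.2% and 48.8%. Leaving out that library moved the log2 fold change of 143 genes by more than 0.5 and of 54 genes by more than 1. Among 14777 genes with a mean of at least 1 CPM, 131 had an absolute log2 fold change over 0.5 with all libraries, and 34 had one without HOM 3.

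**Figure D1:**
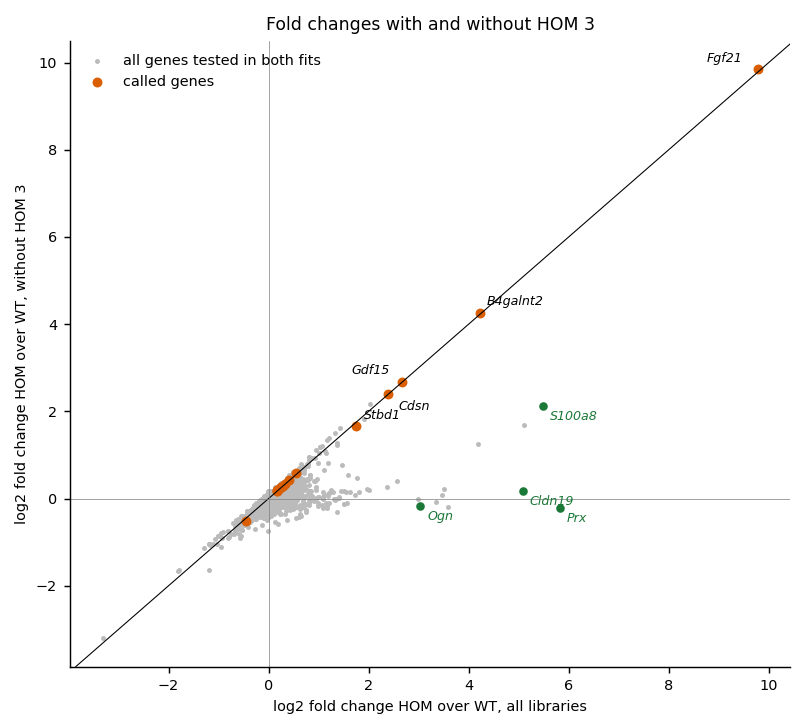
Each point is a gene tested in both fits, with its log2 fold change of HOM over WT from all libraries on the x axis and the value without HOM 3 on the y axis; the diagonal marks equal values. The called genes in orange lie along the diagonal, while Prx, Cldn19 and Ogn in green lie near 0 on the y axis; the position of Fgf21, which had no WT read, depends on the prior count of the fit.

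Promoter sequence is shown for Fgf21 and Chac1, called genes whose windows held a binding motif of ATF4 with its C/EBP partners, so that the letters can be read beside the values. The motif searched was TGATGNAA, read on the other strand as TTNCATCA, in 250 bases before and 50 bases after the annotated start in RefSeq on GRCm38.p6, on both strands. At least 1 window was found for 15 of the 17 genes called with or without HOM 3; Cars and Wars had none. The motif was present in a window of 3 of those 15 genes, of which these 2 are shown. It was present in 3.97% of all 32851 promoter windows and in 2.8% of the 12407 tested genes that had a window. The capitals mark the match, each written 5′ to 3′ on the strand of the gene. The Fgf21 sequence is chr7:45615491-45615740, minus strand, and the Chac1 sequence is chr2:119350992-119351241, plus strand.
Fgf21: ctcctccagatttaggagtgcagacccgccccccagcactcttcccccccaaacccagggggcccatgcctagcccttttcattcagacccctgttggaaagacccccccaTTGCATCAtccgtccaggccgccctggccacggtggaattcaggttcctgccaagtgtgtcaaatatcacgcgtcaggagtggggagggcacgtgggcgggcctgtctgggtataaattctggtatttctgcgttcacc
Chac1: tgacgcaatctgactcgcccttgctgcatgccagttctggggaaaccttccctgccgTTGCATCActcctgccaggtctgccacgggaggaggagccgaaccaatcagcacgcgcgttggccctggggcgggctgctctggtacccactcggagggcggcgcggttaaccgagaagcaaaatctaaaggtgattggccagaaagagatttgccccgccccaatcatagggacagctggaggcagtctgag
The same letters, TTGCATCA, stood 139 bases before the start in Fgf21 and 193 bases before it in Chac1. A match describes the letters in this window and does not show a binding site.

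Of the 19 genes on the list of stress response regulators and effectors, 15 were higher by any amount and 4 lower. Called higher were 5, against 0.0884% of all genes: Atf4, Chac1, Sesn2, Cyb5r1 and Stbd1. On that list 8 had an unadjusted p below 0.05, all higher, against 3.62% of all genes. The median log2 fold change was 0.20 and the value without HOM 3 was also 0.20. This list and those below were chosen with earlier results of these data known, so their counts and medians are descriptions.

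Atf4, the transcription factor at the centre of the response, had 74.3, 76.4 and 82.8 CPM as lowest, median and highest values in WT and 81.9, 91.6 and 97.8 CPM in HOM. Only the lowest HOM values reached the highest WT value. Atf4 rose by a log2 fold change of 0.23 (SE 0.0383, adjusted p = 0.00461), and 0.24 without HOM 3 (adjusted p = 0.00245). Chac1, which breaks down glutathione, had 6.23, 6.94 and 7.69 CPM in WT and 8.15, 10.0 and 12.5 CPM in HOM. The groups did not overlap, and HOM 3 was the lowest HOM library. The log2 fold change of Chac1 was 0.55 (SE 0.0757, adjusted p = 3.59e-04), and 0.58 without HOM 3 (adjusted p = 4.31e-05).

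Sesn2, which senses leucine and restrains the growth kinase mTORC1, had 17.9, 20.5 and 21.4 CPM in WT and 21.2, 23.96 and 29.01 CPM in HOM. The ranges met at their ends. Sesn2 rose by a log2 fold change of 0.28 (SE 0.0545, adjusted p = 0.0285), and 0.30 without HOM 3 (adjusted p = 0.00805). Cyb5r1, a reductase, had 17.9, 19.3 and 21.3 CPM in WT and 22.7, 24.3 and 25.9 CPM in HOM, with no overlap. It rose by 0.32 on the log2 scale with and without HOM 3 (SE 0.0418, adjusted p = 1.24e-04 with all libraries). Stbd1, which binds glycogen and links it to membranes, had 1.06, 1.23 and 1.46 CPM in WT and 2.99, 3.95 and 6.32 CPM in HOM. The groups did not overlap, and the highest value was that of HOM 3. Stbd1 rose by 1.75 on the log2 scale (SE 0.149, adjusted p = 7.75e-08), and 1.67 without HOM 3.

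Other regulators of the same list did not pass. Ddit3, which encodes the factor CHOP, had 12.7 to 15.3 CPM in WT and 14.1 to 18.2 CPM in HOM (log2 fold change 0.20, SE 0.0576, adjusted p = 0.547, and 0.20 with adjusted p = 0.433 without HOM 3). Atf5 had 25.1, 27.9 and 29.9 CPM as lowest, median and highest values in WT and 21.6, 27.9 and 69.7 CPM in HOM (0.19, SE 0.191, adjusted p = 0.847, and 0.19 without HOM 3). Atf3, a factor of the same family, was at -0.01 (SE 0.172, adjusted p = 0.991), and at -0.10 without HOM 3. Ddit3, Atf5 and Atf3 were named after their values were seen, as known factors of this response.

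Of 10 secreted factors of the stress response tested, Fgf21, Adm2 and Gdf15 were called higher, against 0.0884% of all genes. None of the other 7 passed. Fgf21, Adm2 and Gdf15 were near 0 in WT and HET and met the filter on low counts through the HOM libraries. They could therefore enter the list only as higher. The median log2 fold change of the list was 0.31 with all libraries. It was 0.13 over the 9 tested without HOM 3, which leave out Adm2.

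Fgf21, a hormone that acts on metabolism through the receptor partner Klb, had no count in any WT library and at least 61 counts in each HOM library. In CPM the HOM libraries ran from 1.85 in HOM 3 through a median of 3.10 to 5.35 in HOM 1. Summed over libraries, HOM had 1108 counts, at least 225-fold more than a floor of 3 counts over the WT group (adjusted p = 7.75e-08, and 3.99e-08 without HOM 3). In the 6 HET libraries the range was 0 to 0.163 CPM. Adm2, a peptide of the calcitonin family, had 1 count over all WT libraries and 7 to 18 counts per HOM library, a ratio of 71.8 with an exact 95% interval of 12.6 to 2860 (adjusted p = 1.01e-06). Gdf15, a hormone of cell stress that acts through the hindbrain, had 11 counts over WT and 4 to 19 counts per HOM library, a ratio of 6.69 (interval 3.61 to 13.8, adjusted p = 0.00245, and 0.00145 without HOM 3). For each of these genes the lowest HOM library lay above the highest WT library in CPM. For Gdf15 this rests on few counts: HOM 6 had 4 (0.135 CPM), WT 2 also 4 (0.092 CPM) and WT 3 had 3 (0.0934 CPM). These intervals and the floor cover counting error only. Klb, named after its value was seen as the receptor partner of Fgf21, ran from 0.245 to 0.487 CPM in WT and from 0.257 to 0.491 CPM in HOM (log2 fold change 0.03, SE 0.181, adjusted p = 0.984).

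Genes of amino acid supply were higher in part. Among 25 amino acid transporters tested, Slc7a1 was called and 5 had an unadjusted p below 0.05, all higher, against 3.62% of all genes (median 0.04, and 0.04 without HOM 3). Slc7a1, the carrier of arginine and lysine, had 66.2, 71.1 and 74.7 CPM in WT and 84.3, 93.2 and 102.6 CPM in HOM. The groups did not overlap, and HOM 3 was the lowest HOM library. Slc7a1 rose by 0.40 on the log2 scale (SE 0.0392, adjusted p = 1.01e-06), and 0.42 without HOM 3 (adjusted p = 5.41e-08). Slc7a5, which exchanges large neutral amino acids such as leucine and tyrosine, had 65.8, 78.9 and 95.9 CPM in WT and 90.0, 94.0 and 121.9 CPM in HOM. Those ranges overlapped, and the gene did not pass (0.31, SE 0.0744, adjusted p = 0.21, and 0.28 with adjusted p = 0.255 without HOM 3).

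Among 26 enzymes of amino acid synthesis, Aldh18a1 was called and 9 had an unadjusted p below 0.05, all higher, against 3.62% of all genes. Without HOM 3 there were 11, against 3.98% (median 0.06 in both). Aldh18a1, which makes the precursor of proline, had 25.1, 25.8 and 28.6 CPM in WT and 27.1, 31.9 and 33.5 CPM in HOM. HOM 3 was the only HOM library under the highest WT library, and without it the groups did not overlap. Aldh18a1 rose by 0.25 on the log2 scale (SE 0.0454, adjusted p = 0.0132), and 0.27 without HOM 3 (adjusted p = 0.00109). In a fit that also held the title prefix it did not pass (0.24, adjusted p = 0.0815).

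The uncalled genes with the smallest p were led by the same chemistry. Shmt2, the mitochondrial enzyme that takes a carbon from serine, had 17.3 to 21.3 CPM in WT and 20.01 to 22.8 CPM in HOM (log2 fold change 0.21, SE 0.0425, adjusted p = 0.052). Mthfd1l, a later mitochondrial folate enzyme that releases formate, had a median of 15.8 CPM in WT and 18.2 CPM in HOM, with no overlap (0.21, SE 0.0465, adjusted p = 0.0955). Pck2, the mitochondrial form of phosphoenolpyruvate carboxykinase, had 18.5 to 21.5 and 21.8 to 25.5 CPM, also with no overlap (0.21, SE 0.0469, adjusted p = 0.101). Pycr1, which completes proline synthesis in mitochondria, was at 1.15 to 1.65 CPM in WT and 1.67 to 2.85 CPM in HOM (0.63, SE 0.144, adjusted p = 0.152). Without HOM 3 the adjusted p-values from edgeR were 0.0715 for Shmt2, 0.124 for Mthfd1l, 0.133 for Pck2 and 0.19 for Pycr1. None of these 4 genes passed the test over all genes, although for 3 of them the HOM and WT libraries did not overlap.

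Of 24 cytosolic tRNA synthetases 21 were higher by any amount and 3 lower, with and without HOM 3. Cars and Wars were called higher, against 0.0884% of all genes, and Aars joined them without HOM 3. With all libraries 10 of the 24 reached an unadjusted p below 0.05, all higher, against 3.62% of all genes. Without HOM 3 there were 13, against 3.98%, and the medians were 0.06 and 0.07.

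Cars, the enzyme for cysteine, had 37.7, 38.5 and 40.3 CPM in WT and 41.9, 44.9 and 46.7 CPM in HOM, with no overlap. It rose by 0.19 on the log2 scale (SE 0.0303, adjusted p = 0.00215), and 0.20 without HOM 3 (adjusted p = 0.00118). Wars, the enzyme for tryptophan, had 116, 123 and 128 CPM in WT and 125, 138 and 145 CPM in HOM. HOM 3 alone lay within the WT range, at 125 CPM. Wars rose by 0.17 on the log2 scale (SE 0.0316, adjusted p = 0.0209), and 0.18 without HOM 3 (adjusted p = 0.00145). In a fit that also held the title prefix it did not pass (0.15, adjusted p = 0.112).

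Aars, the enzyme for alanine, had 215, 225 and 250 CPM in WT and 225, 257 and 282 CPM in HOM. HOM 3 was again the lowest HOM library. The log2 fold change was 0.17 with all libraries (SE 0.0389, adjusted p = 0.164) and 0.19 without HOM 3 (SE 0.0338, adjusted p = 0.0108). Rars, the enzyme for arginine, did not overlap between the groups (36.5 to 39.2 CPM in WT, 39.8 to 43.1 CPM in HOM) but did not pass (0.11, SE 0.0261, adjusted p = 0.159, and 0.12 with adjusted p = 0.199 without HOM 3).

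Other called genes lie outside these roles. Cdsn, which encodes corneodesmosin, an adhesion protein of the outer skin, had 0.244, 0.410 and 0.550 CPM in WT and 1.69, 2.05 and 2.79 CPM in HOM, with no overlap. Cdsn rose by 2.38 on the log2 scale (SE 0.18, adjusted p = 1.97e-08), and 2.41 without HOM 3 (adjusted p = 4.57e-09). B4galnt2, a transferase that adds a sugar to glycans, had 9 counts over all WT libraries and 11 to 54 counts in each HOM library, a ratio of 20.2 (exact 95% interval 10.5 to 44.6, adjusted p = 1.25e-06, and 6.16e-07 without HOM 3). That interval covers counting error only. With at most 4 counts in any WT library and 3 in any HET library, B4galnt2 met the filter on low counts through the HOM libraries. It could therefore be called only as higher. Acsl5, which activates long fatty acids, had 31.8, 33.2 and 35.5 CPM in WT and 36.0, 37.5 and 39.5 CPM in HOM. The groups of both genes did not overlap. Acsl5 rose by 0.17 on the log2 scale with and without HOM 3 (SE 0.0294, adjusted p = 0.0104 with all libraries). In a fit that also held the title prefix it did not pass (0.16, adjusted p = 0.0542).

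Mrvi1, which takes part in the control of calcium release in smooth muscle, was the only called gene that fell. It had 9.89, 10.5 and 12.9 CPM in WT and 6.79, 7.50 and 11.0 CPM in HOM, and the 11.0 CPM belonged to HOM 3. The other 9 HOM libraries ended at 8.80 CPM and did not overlap with WT. The log2 fold change was -0.45 (SE 0.0842, adjusted p = 0.0185), and -0.51 without HOM 3 (SE 0.0669, adjusted p = 1.13e-04). Summed markers of pericytes and smooth muscle were at 479.6 CPM in HOM 3 and 238.9 to 331.7 CPM in the other HOM libraries, against 246.7 to 322.5 CPM in WT; their part in the Mrvi1 values was not tested.

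**Figure D2:**
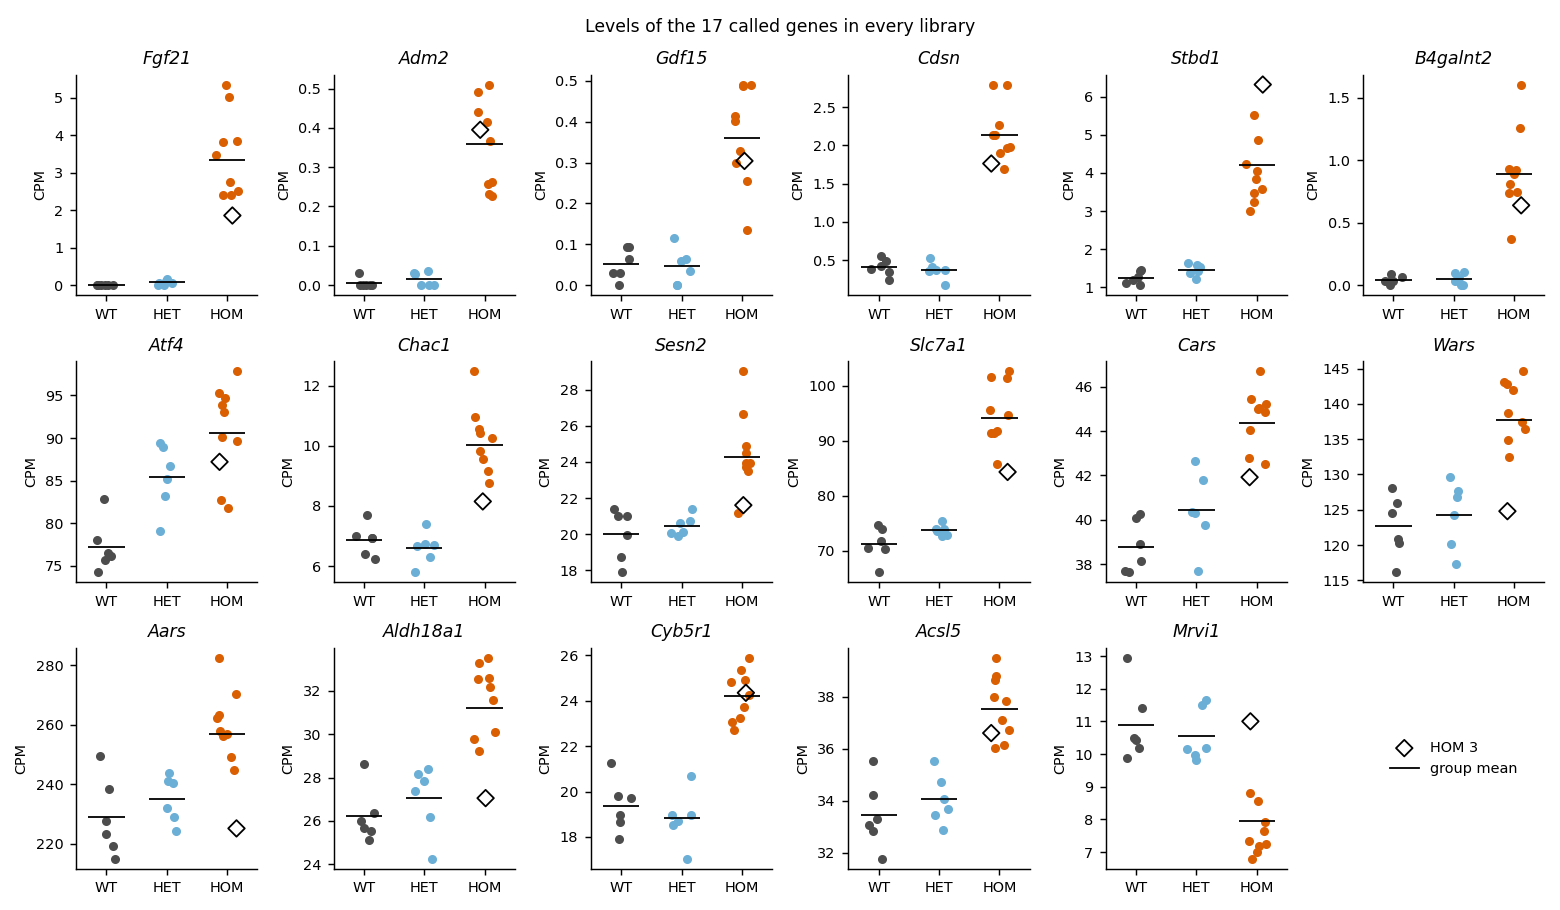
Every panel shows the level of a called gene in CPM on its own y axis, with 6 WT, 6 HET and 10 HOM libraries as points, HOM 3 as an open diamond and the group mean as a bar. HOM 3 is the lowest HOM library for Fgf21, Chac1, Slc7a1, Cars, Wars, Aars and Aldh18a1 and the highest for Stbd1 and Mrvi1.

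The heterozygous libraries help to place these values. For 10 of the 17 genes called with or without HOM 3, all HOM libraries lay beyond all HET libraries, and for 11 they lay beyond all WT libraries. For 0 of the 17 did the HET and WT libraries separate, and the HET mean lay between the WT and HOM means for 13. The genes were chosen by HOM against WT, so these counts describe the choice. Among the 13, Fgf21 had 0 counts over WT, so its HET mean could not lie below the WT mean. B4galnt2 and Adm2 are also among the 13, on 9 and 1 counts over WT and 9 and 3 counts over HET. Over all genes tested, every HOM library lay above every WT library in 0.118% and below in 0.00589%. The shares over all genes were not counted for HET, so the counts with HET have no background to be read against. Atf4 had a HET range of 79.1 to 89.5 CPM, which overlapped with both other groups, and Slc7a1 a HET range of 72.6 to 75.4 CPM, which overlapped only with WT.

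Separation of whole groups was rare across the transcriptome. In 20 genes (0.118%) every HOM library lay above every WT library, and in 1 gene (0.00589%) every HOM library lay below. The 20 included Slc7a1, Cars, Rars, Acsl5 and Pck2, and the 1 lower gene was Sema3d, a secreted axon guidance protein, at 12.1 to 15.7 CPM in WT and 9.18 to 11.8 CPM in HOM (log2 fold change -0.27, SE 0.074, adjusted p = 0.398). Without HOM 3 the counts were 27 (0.159%) and 4 (0.0236%). The genes gained on the higher side included the called genes Wars and Aldh18a1. Also gained were Hspa9, a chaperone of the mitochondrial matrix, Pitpna, a carrier of phosphatidylinositol, Prpf19, a splicing factor, and Btrc, a subunit of a ubiquitin ligase. Pitpna, Prpf19 and Btrc were at 0.11, 0.07 and 0.05 on the log2 scale without HOM 3, and none passed (edgeR adjusted p = 0.274, 0.422 and 0.704). On the lower side were Sema3d, Mrvi1, Gk5 and Cd24a, a surface glycoprotein, at 67.9 to 86.2 CPM in WT and 50.8 to 67.2 CPM in the 9 other HOM libraries (-0.38, SE 0.0812, adjusted p = 0.0934 without HOM 3). Gk5 did not pass either (-0.27, edgeR adjusted p = 0.432 without HOM 3).

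Beyond the stress response targets, the lists were read from their counts and medians, since no member outside it other than those named above was called. Mitochondrial chaperones and proteases had 12 of 16 members higher, where 53.7% of all genes were, and 5 of them had an unadjusted p below 0.05, against 3.62% of all genes (median 0.04). Without HOM 3, 14 were higher, where 51.2% of all genes were, and 6 had such a p, against 3.98% (median 0.05). Hspa9 had 243, 248 and 254 CPM in WT and 245, 262 and 283 CPM in HOM, with HOM 3 lowest (0.09, SE 0.0256, adjusted p = 0.515, and 0.10 with adjusted p = 0.147 without HOM 3). Lonp1, a protease of the mitochondrial matrix, had 64.7, 72.2 and 79.0 CPM in WT and 73.4, 78.2 and 83.5 CPM in HOM (0.12, SE 0.0392, adjusted p = 0.643, and 0.14 with adjusted p = 0.407 without HOM 3). The ranges of both overlapped between the groups.

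Lists of other stress pathways lay near the median of all genes, apart from that of stalled ribosomes and eIF2 kinases. The unfolded protein response of the endoplasmic reticulum had 14 of 25 members higher and a median of 0.01 (13 and 0.00 without HOM 3), with Herpud1, which helps to degrade misfolded proteins, at 0.15 (SE 0.0584, adjusted p = 0.815). Cytosolic heat shock genes had 7 of 18 higher, and 0 had an unadjusted p below 0.05 (median -0.01, and -0.02 without HOM 3). NRF2 targets, which answer oxidative stress, had 11 of 20 higher (median 0.01, and 0.02 without HOM 3), with Hmox1, which degrades heme, at 0.43 (SE 0.171, adjusted p = 0.815). Genes that sense stalled ribosomes or phosphorylate eIF2 had 14 of 18 higher, against 53.7% of all genes (median 0.03). Without HOM 3 there were again 14, against 51.2% (median 0.03). Of these genes 1, the ubiquitin ligase Zfp598, had an unadjusted p below 0.05 (0.10, SE 0.034, edgeR adjusted p = 0.643).

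Cholesterol synthesis lay on the other side. Of 23 members 22 were lower, 10 of them at an unadjusted p below 0.05, against 2.3% of all genes (median -0.09). Without HOM 3, 21 were lower and 8 had such a p, against 2.5% of all genes (median -0.07). Hmgcs1, which makes the substrate of the rate-limiting enzyme of this pathway, had 325, 395 and 436 CPM in WT and 295, 333 and 375 CPM in HOM. The lowest value was that of HOM 3, and the ranges overlapped. Its log2 fold change was -0.19 (SE 0.0604, adjusted p = 0.643), and -0.17 without HOM 3 (SE 0.0586, adjusted p = 0.63). Ebp, a sterol isomerase, had a median of 21.4 CPM in WT and a median of 20.2 CPM in HOM (-0.11, SE 0.0355, adjusted p = 0.643). Oligodendrocyte and myelin markers were mostly lower too: 18 of 20, where 46.3% of all genes were (median -0.07). Without HOM 3, 16 were lower, where 48.8% of all genes were (median -0.04). The summed level of these markers was 23200 to 26220 CPM in WT, 18260 CPM in HOM 3 and 22620 to 25410 CPM in the other HOM libraries. Their part in the cholesterol values was not tested.

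Transcripts of mitochondria and ribosomes showed shared but small offsets. All 13 mitochondrially encoded genes were lower, with 0 at an unadjusted p below 0.05 (median -0.13, and -0.12 without HOM 3). The mitochondrial share of counts ran from 4.88% to 7.79% in WT and from 5.19% to 6.84% in HOM, so the groups overlapped. Of 59 nuclear genes of the respiratory chain 46 were higher (median 0.02, and 0.03 without HOM 3), and of 76 cytosolic ribosomal proteins 64 were higher (median 0.03, and 0.02 without HOM 3). For a list whose members share libraries and scaling, the members are not independent.

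Neuronal genes were described by the same counts. Of 20 motor neuron and cholinergic genes 12 were lower, where 46.3% of all genes were (median -0.04). At an unadjusted p below 0.05 there were 5 lower and 1 higher, against 2.3% and 3.62% of all genes. Without HOM 3, 13 were lower, where 48.8% of all genes were (median -0.02). In that fit 6 lower and 2 higher had such a p, against 2.5% and 3.98%. Fgf1, a growth factor on this list, had 266, 275 and 288 CPM in WT and 218, 251 and 270 CPM in HOM. The ranges overlapped by a few CPM, and the lowest value was that of HOM 3. Its log2 fold change was -0.15 (SE 0.0337, adjusted p = 0.109), and -0.13 without HOM 3 (SE 0.0276, adjusted p = 0.064). Chat, the enzyme that makes acetylcholine, had 21.6, 23.4 and 29.3 CPM in WT and 13.3, 21.1 and 24.3 CPM in HOM, with 19.4 CPM as the lowest value outside HOM 3. The log2 fold change of Chat was -0.22 (SE 0.087, adjusted p = 0.815), and -0.16 without HOM 3 (SE 0.0584, adjusted p = 0.647).

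Further neuronal lists had medians near 0. Neuropeptides and their receptors had 20 of 26 lower (median -0.03), receptors of glutamate, GABA and glycine 21 of 29 lower (median -0.03), and genes of the synaptic vesicle 16 of 26 higher (median 0.01). Without HOM 3 these counts were 17, 19 and 17, and the medians -0.02, -0.02 and 0.02. Hcn4, a channel that carries pacemaker current, was among the uncalled genes with the smallest p, at 10.5 to 13.7 CPM in WT and 13.3 to 15.4 CPM in HOM (0.22, SE 0.0476, adjusted p = 0.107). S100a1, a calcium-binding protein, was on the lower side of that set at 42.9 to 53.3 CPM in WT and 39.1 to 47.1 CPM in HOM (-0.18, SE 0.0429, adjusted p = 0.164). In the circadian clock list, Cry1 and Cry2, repressors of the clock, were at 0.19 (SE 0.0483, adjusted p = 0.286) and 0.10 (SE 0.0353, adjusted p = 0.767).

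Medians of glial and vascular markers were small once HOM 3 was left out, but some lists kept a shared direction. Astrocyte markers had a median of -0.02 and microglia markers a median of -0.02 with all libraries, and -0.02 and 0.02 without HOM 3. Gfap, the filament protein of astrocytes, had 1249 to 1834 CPM in WT and 683 to 1763 CPM in HOM, with HOM 3 at 683 CPM (-0.20, SE 0.151, adjusted p = 0.821). All 15 pericyte and smooth muscle markers were higher in both fits, against 53.7% of all genes, and 51.2% without HOM 3. Their median of 0.22 became 0.07 without HOM 3. In each fit 2 of them had an unadjusted p below 0.05, against 3.62% and 3.98% of all genes. Endothelial markers had a median of 0.07, and 0.03 without HOM 3, and Eng, a receptor partner of TGF-beta signalling in vessels, was at 0.24 and 0.19 (SE 0.079 and 0.0677, adjusted p = 0.643 and 0.633).

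**Figure D3:**
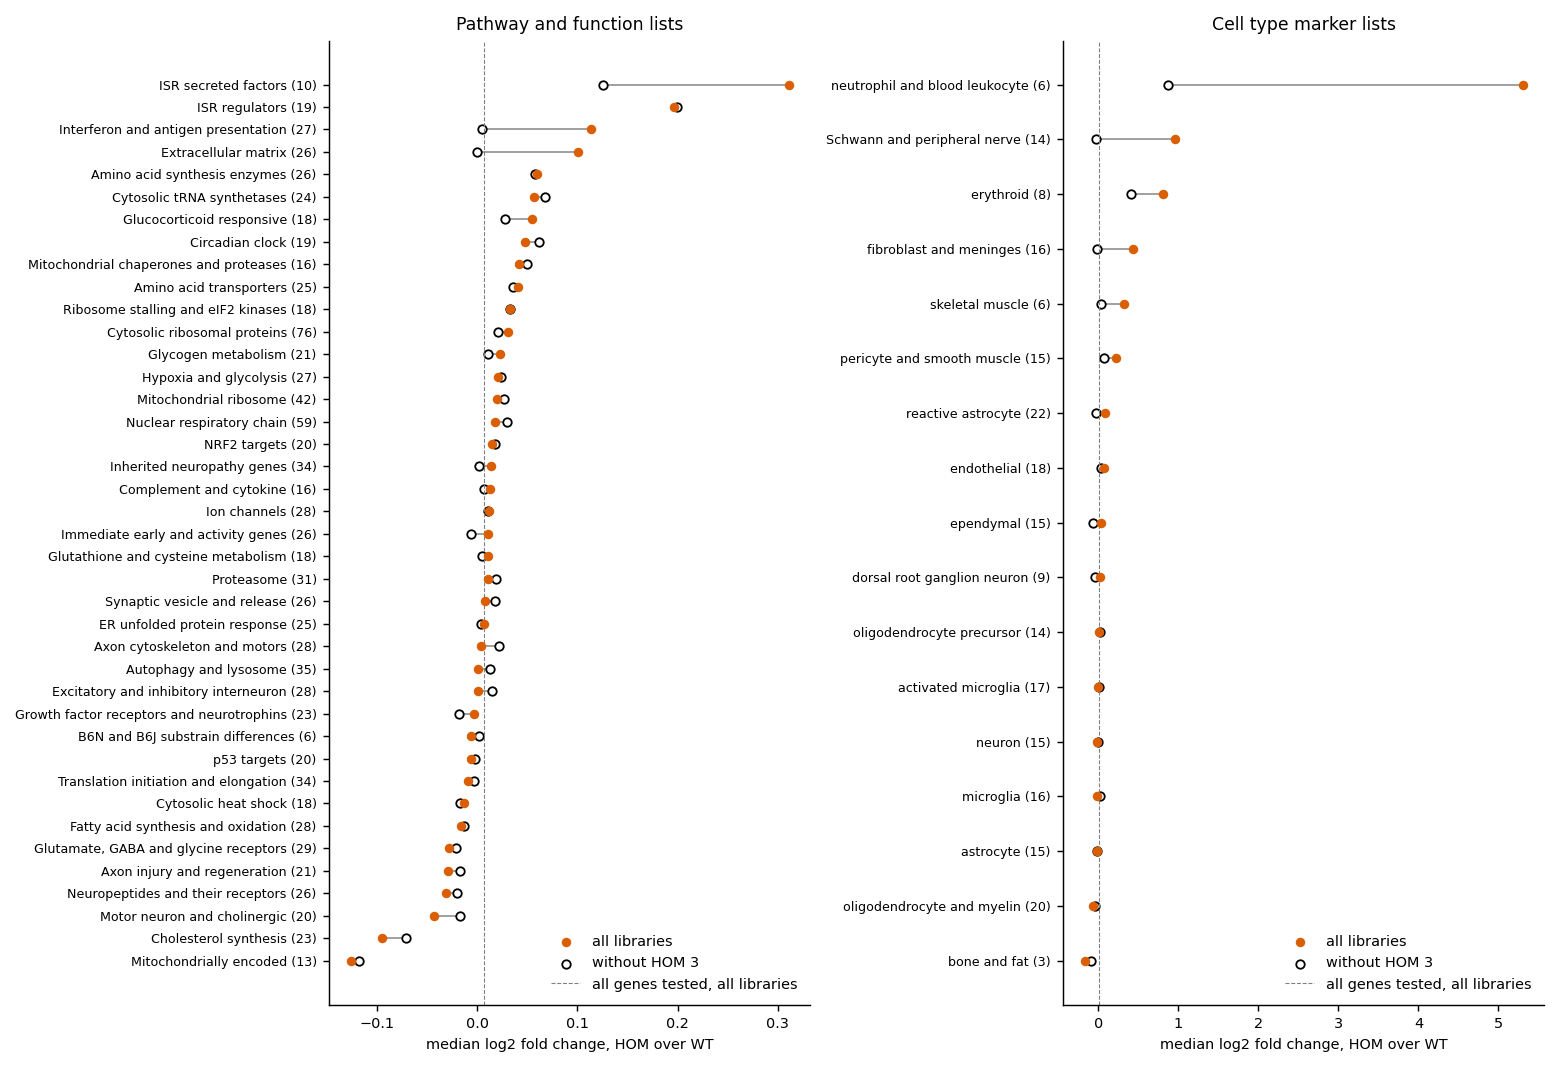
Each row is a gene list with its number of tested members in brackets, and the x axis is the median log2 fold change of HOM over WT, filled for all libraries and open without HOM 3; the left panel has pathway lists, the right panel marker lists on a wider axis. The regulators of the stress response stay at 0.20 in both fits, while the Schwann cell median goes from 0.95 to -0.02.

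Lists of cells outside the cord tissue were among those that moved most on leaving out HOM 3. The median of Schwann and peripheral nerve markers went from 0.95 to -0.02, that of fibroblasts and meninges from 0.43 to -0.01 and that of neutrophils and blood leukocytes from 5.30 to 0.87, with 6 and then 4 members tested. Markers of erythroid cells went from 0.81 to 0.41, and their summed level was 2189 CPM in HOM 3, 1164 CPM in HOM 9, 846.9 CPM in HOM 7 and 619.3 CPM in HOM 5, against at most 577.7 CPM in WT. Lists of pathways shifted as well: interferon and antigen presentation genes went from 25 of 27 higher to 16 of 27 (median 0.11 and 0.00), and extracellular matrix genes from 20 of 26 higher to 13 of 26 (median 0.10 and -0.00). Cd74, which guides antigen presentation, was at 54.9 CPM in HOM 3 and 1.90 to 2.87 CPM in the other HOM libraries. No gene of these lists was called in either fit.

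Genes of nerve sheath led those that were high in HOM 3. Relative to the highest other HOM library, the ratios of leading genes included 466.2 for Prx, 60.2 for Ogn, a matrix proteoglycan, and 53.4 for Fam178b. Between Prx and Ogn lay Cldn19 and Dhh, a junction protein and a signal of Schwann cells, and Egr2, the factor that drives peripheral myelination, with Cdh1, Plekha4 and Mfap5. Mki67, a marker of dividing cells, reached 31.6 CPM there and no more than 1.19 CPM in any other HOM library, and S100a9, a protein of neutrophils, at 96.6 CPM against at most 4.91 CPM; these 2 were named after their values were seen.

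Genes low in HOM 3 included a gene of position along the body axis. Hoxc8 was at 8.42 CPM in HOM 3 and at 32.4 CPM or more in the other HOM libraries, against at least 31.9 CPM in WT. Klk6, a protease of oligodendrocytes, was at 8.03 CPM against 17.2 CPM or more, and Aplnr, the apelin receptor, at 7.66 CPM against 12.9 CPM or more. Gfap and Gm42418 completed the 5 lowest ratios, at 0.613 and 0.62 of the lowest other HOM library. The reads behind these ratios come from 1 library, so they have no replicate check.

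**Figure D4:**
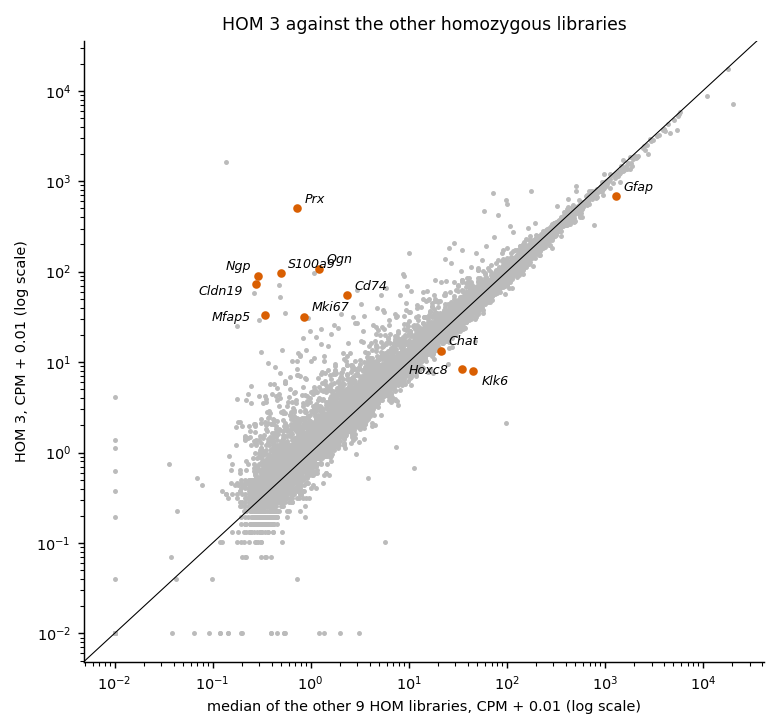
Each point is a gene, with its median CPM over the other 9 HOM libraries on the x axis and its CPM in HOM 3 on the y axis, both on log scales after adding 0.01; the diagonal marks equal levels. Peripheral nerve genes such as Prx and Cldn19 lie far above the diagonal, and Hoxc8 and Klk6 lie below it.

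The HOM libraries also varied among themselves. Ordered by Fgf21, HOM 3 was lowest at 1.85 CPM, followed by HOM 7 at 2.40, HOM 8 at 2.41, HOM 10 at 2.5 and HOM 6 at 2.74 CPM. Above them came HOM 9 at 3.46, HOM 5 at 3.83, HOM 4 at 3.84, HOM 2 at 5.03 and HOM 1 at 5.35 CPM. The 4 highest libraries share the title prefix 39992, which also holds HOM 3.

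The level of Cdsn followed that of Fgf21 over these 10 libraries (Pearson r 0.947, permutation p = 7e-05; Spearman rho 0.879, permutation p = 0.0016), on log2(CPM + 1). Of 16 such relations, 14 were positive and 5 had a Benjamini-Hochberg adjusted p below 0.05 for r: Cdsn (adjusted permutation p = 0.00112), Aldh18a1 (r 0.79, adjusted permutation p = 0.0338), Wars (r 0.766, adjusted permutation p = 0.0338), Chac1 (r 0.772, adjusted permutation p = 0.0338) and Slc7a1 (r 0.748, adjusted permutation p = 0.0485). By rho only Cdsn had such an adjusted p (0.0256, two-sided permutation test). Without HOM 1 and HOM 2, which lay farthest from the median Fgf21 level, r was 0.884 for Cdsn and 0.512 for Chac1. Without HOM 3 it was 0.951 for Cdsn, 0.705 for Aldh18a1, 0.678 for Chac1, 0.675 for Wars and 0.649 for Slc7a1. Atf4 (r 0.264, permutation p = 0.456), Stbd1 (r 0.0357, permutation p = 0.921) and Sesn2 (r -0.0447, permutation p = 0.904) were among the relations that did not pass. For Stbd1 and Sesn2 the value turned on 1 library: r was 0.566 and -0.346 without HOM 3. Each title prefix holds at most 5 HOM libraries, too few for a correlation of its own. With the mean of each prefix taken out of both genes, an alternative chosen after seeing the data, r was 0.923 for Cdsn (exact permutation within prefixes, p = 0.0111, adjusted p = 0.178). In that form 0 of the 16 relations had an adjusted p below 0.05; r was 0.836 for Aldh18a1, 0.842 for Wars, 0.779 for Chac1, 0.755 for Slc7a1 and -0.666 for Stbd1. Under prefix 39992, Cdsn was at 1.76 CPM in HOM 3, 2.27 in HOM 5, 2.14 in HOM 4, 2.80 in HOM 2 and 2.78 in HOM 1.

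**Figure D5:**
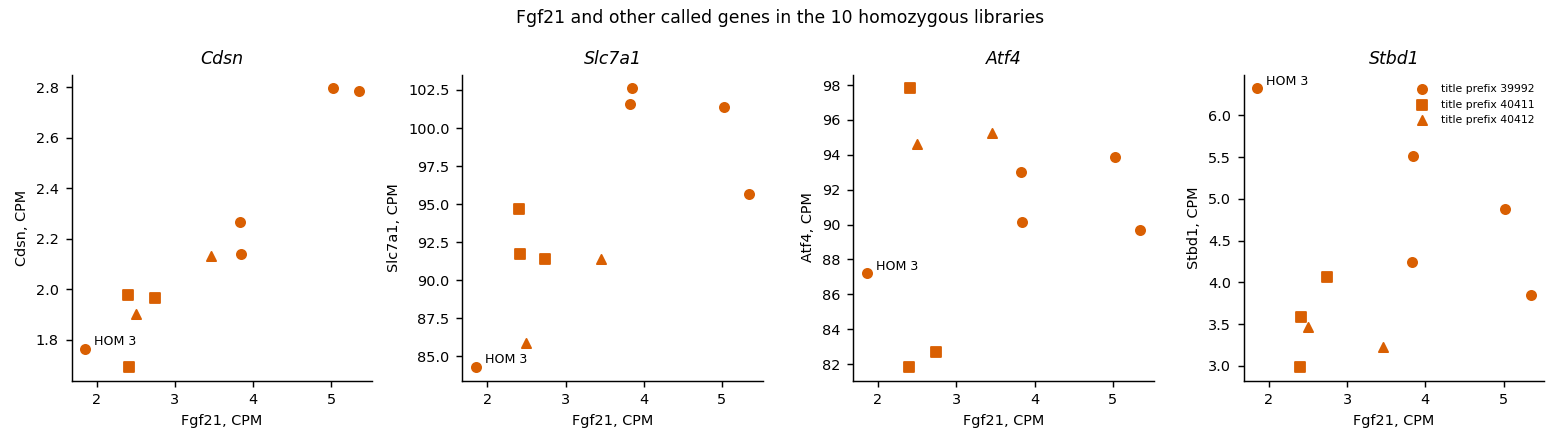
In each panel the x axis is Fgf21 in CPM and the y axis another called gene in CPM, with 10 HOM libraries as points whose shape gives the title prefix and HOM 3 named. Cdsn and Slc7a1 are mostly higher where Fgf21 is higher (r 0.947 and 0.748); for Stbd1, HOM 3 is highest at the lowest Fgf21 level, and r is 0.0357 with it and 0.566 without it.

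All 17 called genes had the same direction within each title prefix. The differences in log2(CPM + 0.1) between the HOM and WT means within a prefix ran from 0.33 to 0.39 for Slc7a1, from 0.22 to 0.27 for Atf4 and from -0.66 to -0.44 for Mrvi1. Since the same libraries chose the genes, this is a description.

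The surroundings of Yars on chromosome 4 were read separately, since sequence near an edited allele can be carried with it. Within 5 Mb of Yars 160 genes were tested, of which only Sesn2 was called, where 0.0943% of all genes were. At an unadjusted p below 0.05 there were 12 (7.5%), 11 higher and 1 lower. On the whole chromosome that share was 5.99%, with 47 higher and 14 lower. Over all genes it was 5.91%, with 614 higher (3.62%) and 390 lower (2.3%). For Sesn2 the E196K change and a nearby difference carried with it cannot be told apart. Genes that are known to differ between the B6N and B6J substrains did not separate the groups: 3 of 6 were higher and 0 had an unadjusted p below 0.05. Nnt, of which B6J mice carry a deletion, ran from 17.8 to 20.4 CPM in WT and from 16.03 to 21.4 CPM in HOM.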

How the data were processed

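For each library the authors deposited expected counts and TPM by Ensembl gene, in the layout that RSEM writes, per the file headers. RSEM 1.2.12 and Bowtie2 2.2.0 appear in the submitters' processing notes. No build, annotation or strand setting of the counting is given in the sources used here, so close paralogs and overlapping genes are uncertain. Expected counts were rounded, and 38924 gene IDs were reduced by filterByExpr to 16974. All 22 libraries were scaled by TMM and fitted with the edgeR 4.0.16 quasi-likelihood test in R 4.3.3, with Benjamini-Hochberg adjustment over all genes tested. Standard errors come from the F statistic. CPM are counts relative to the TMM-scaled total of tested genes. The deposited TPM values served an alternative with limma 3.58.1 on log2(TPM + 1), and DESeq2 1.42.0 was another. The procedure was tested on simulated data. The 57 gene lists, 40 of pathways and 17 of cell type markers, overlap in part.

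The genes named are Yars, the called genes (Xist and clone names aside), the 10 uncalled genes of at least 1 CPM with the smallest p, up to 2 members with the smallest p of each list described, the 5 most abundant genes in each direction whose groups do not overlap, and the 10 highest and 5 lowest ratios in HOM 3. Members and lists were chosen with earlier results of these data known. A few results are not reported here.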

Additional observations from a re-analysis of the deposited data

Results flagged for a closer look

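In groups of 6 to 10 libraries, the distance of the highest or lowest library from its nearest neighbour was compared with the range of the group. Of 70 groups examined, 15 had a library far from the others, and 10 of these libraries were HOM 3. Chance alone gives about 1 in 20 groups where the groups are independent. These groups share libraries and some markers. HOM 3 was also set apart beforehand for its peripheral nerve transcripts, so the counts are a description.

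HOM 3 was far above the other HOM libraries for Mrvi1 (11.0 CPM) and for the summed markers of Schwann cells and peripheral nerve (4328 CPM), fibroblasts and meninges (1100 CPM), erythroid cells (2189 CPM), neutrophils and blood leukocytes (501.9 CPM), endothelium (876.7 CPM), pericytes and smooth muscle (479.6 CPM) and skeletal muscle (32.28 CPM). It was far below them for the summed markers of microglia (446.2 CPM) and of oligodendrocytes and myelin (18260 CPM).

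Among WT libraries, WT 4 was far above the others for Aldh18a1 (28.61 CPM). WT 1 was the only WT library with a count of Adm2 (0.0305 CPM); it was also lowest for oligodendrocyte and myelin markers (23200 CPM) and highest for markers of dorsal root ganglion neurons (137.1 CPM). WT 6 was lowest for pericyte and smooth muscle markers (246.7 CPM).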

How the results depend on the processing

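The count of 16 called genes was 28 with DESeq2, which called all 16, and 39 with DESeq2 without HOM 3 (14 shared with the 16 called there by edgeR). Limma-trend on log2(TPM + 1) called 12 with all libraries (11 shared) and 9 without HOM 3 (8 shared). Leaving out single libraries gave between 12 genes (without WT 1 or WT 3) and 19 (without WT 6). With the title prefix as a covariate the count was 15 (13 shared), with Xist 18, and with HOM and WT libraries only 12; without HOM 3 these were 24 (16 shared), 20 and 14. The number of genes with all HOM libraries below all WT libraries was 1, and 4 without HOM 3. No called gene changed direction under the alternatives run, but the medians of some lists did. Without HOM 3 the medians of 9 lists changed sign, among them Schwann cells (0.95 to -0.02), fibroblasts (0.43 to -0.01), reactive astrocytes (0.08 to -0.02) and ependymal cells (0.04 to -0.07). With Xist as a covariate 5 did, among them the unfolded protein response (0.01 to -0.03), and with the title prefix 5.

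Of the called genes, Wars was lost under 12 of 25 alternatives (highest adjusted p = 0.114), Sesn2 under 11 (0.153), Acsl5 under 5 (0.106), Aldh18a1 under 5 (0.444) and Mrvi1 under 4 (0.74, limma-trend). Aars was called with DESeq2 and without HOM 3. Leaving out HOM 3 moved the median of 3 of 57 lists beyond their spread, the SD of the list mean in log2(CPM + 1) over all HOM libraries. That spread includes HOM 3, which can widen it, so the count does not show that the other lists are insensitive to HOM 3. No paired analysis was possible because replicates were only numbered in accession order. Genes with few counts, such as Adm2 and Gdf15, are limited by depth.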
